A study of Mus musculus with 48 samples.

Results

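The serotonin receptor genes of the mouse striatum were followed across the 6 genotypes of a Huntington's disease cross. The members were the 10 genes named Htr1a, Htr1b, Htr1d, Htr1f, Htr2a, Htr2c, Htr3a, Htr4, Htr6 and Htr7 in the deposited count table, out of 48795 genes in that table. They were taken by gene name, with no threshold on a measured value, and 4 further receptor genes (Htr2b, Htr3b, Htr5a and Htr5b) were not among them. RNA was sequenced from the corpus striatum of 48 mice on a C57BL/6 background, with 8 mice per genotype, 4 females and 4 males. The genotypes were Q140 x Msh3-/-, Q140 x Msh3+/-, Q140, Msh3-/-, Msh3+/- and wild type (WT). Q140 is a knock-in of an expanded CAG repeat into the mouse Htt gene, and the labels give every Q140 mouse, alone or in a cross, as heterozygous for it. Msh3 encodes a mismatch repair protein, and the labels mark 1 allele of it as lost in Msh3+/- mice and both in Msh3-/- mice. How the Msh3 allele was made is not given in the sources used here. No group was treated. The mice are labelled 12 months old, but the extraction text dates the dissection to 6 months, which leaves the age uncertain.

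Serotonin reaches the striatum through axons of the raphe nuclei and acts there on receptors of several families. The Htr1 receptors couple to inhibitory G proteins and lower cyclic AMP, the Htr2 receptors couple to Gq and phospholipase C, and the products of Htr4, Htr6 and Htr7 couple to stimulatory G proteins and raise cyclic AMP. Htr3a encodes a subunit of a serotonin-gated cation channel and, alone among the members, does not encode a G protein-coupled receptor. In rodent striatum, spiny projection neurons, its GABAergic and by far most numerous cells, are known to express several of these genes, and the Htr1b receptor is carried to their axon terminals.

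Library totals ran from 38.9 to 60.9 M counts (M, mega), with a median of 47.3 M, and the members took 0.021 to 0.029% of a library. Msh3, the targeted gene, had 103 to 126 CPM (counts-per-million, scaled by trimmed mean of M values) in Q140 x Msh3-/- mice, 68.4 to 81.5 CPM with 1 labelled loss beside Q140 and 28.5 to 32.5 CPM in Q140 mice. Without Q140 it had 118 to 126 CPM in Msh3-/- mice and 72.0 to 76.5 CPM in Msh3+/- mice, against 26.4 to 30.9 CPM in WT mice. Msh3 RNA thus separated all 48 libraries by labelled Msh3 genotype, but was higher with each allele labelled as lost, against the direction of a loss. Counts summed over all of its exons say nothing of whether a working protein is made, and every Msh3 genotype named here is the one the labels give. Once genotype and sex were taken out, 4 libraries stood apart on the first principal component, which held 15.5% of the remaining variance: Q140 x Msh3-/- M1, Q140 x Msh3+/- F1, Msh3-/- M1 and Msh3-/- F1 (F, female; M, male).

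The letters before the start sites of Htr2c and Htr1b are given because these were the most strongly changed abundant members and moved in opposite directions, and those of Htr6 because its promoter differs from both in base composition. The sequences are the 250 bases before the RefSeq start site (GRCm38.p6), written 5′ to 3′ on the gene's strand, and 8 of the 10 members matched the RefSeq promoter table. Htr2c lies on the plus strand of chromosome X (ENSMUSG00000041380; 146962513 to 147197277, with its coding sequence on 4 exons), and the window shown is chrX:146962263-146962512. Htr1b lies on the minus strand of chromosome 9 (ENSMUSG00000049511; 81628291 to 81633828, with its coding sequence on 1 exon), and the window is chr9:81633833-81634082. Htr6 lies on the minus strand of chromosome 4 (ENSMUSG00000028747; 139061108 to 139075570, with its coding sequence on 3 exons), and the window, before the more upstream of its RefSeq starts, is chr4:139075571-139075820. Capitals mark matches on either strand to TATAAA (a core promoter element), CACGTG (E-box), GGGCGG (GC box), TGACG (CRE core), TGANTCA (AP-1 site) or GCGNGGGCG (EGR site). The GC box and EGR letters can overlap.
Htr2c: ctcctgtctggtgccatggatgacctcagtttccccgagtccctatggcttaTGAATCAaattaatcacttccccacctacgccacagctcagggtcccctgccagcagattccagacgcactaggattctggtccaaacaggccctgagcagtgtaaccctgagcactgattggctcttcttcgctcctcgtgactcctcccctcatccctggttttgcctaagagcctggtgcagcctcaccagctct
Htr1b: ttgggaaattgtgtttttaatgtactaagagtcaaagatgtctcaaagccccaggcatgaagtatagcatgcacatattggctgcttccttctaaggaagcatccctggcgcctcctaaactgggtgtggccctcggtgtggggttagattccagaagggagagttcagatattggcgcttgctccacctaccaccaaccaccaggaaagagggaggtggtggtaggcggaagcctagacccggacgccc
Htr6: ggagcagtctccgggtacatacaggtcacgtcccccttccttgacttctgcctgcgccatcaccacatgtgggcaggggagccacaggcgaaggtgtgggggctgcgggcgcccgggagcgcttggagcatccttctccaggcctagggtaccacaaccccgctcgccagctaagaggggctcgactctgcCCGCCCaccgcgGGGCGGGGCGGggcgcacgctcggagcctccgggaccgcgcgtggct
The Htr2c window held 1 match, to TGANTCA, which 6.7% of 32851 promoter windows of the same length hold. The Htr1b window held no match to the 6 motifs, which says only that these letters are not in it. The Htr6 window held 3 matches to GGGCGG, of which 2 overlap by a base, and 32.7% of all windows hold this motif. Of all windows, 12.4% hold TATAAA, 6.0% the E-box, 17.8% the CRE core and 4.7% the EGR letters. Guanine and cytosine made up 55.6% of the Htr2c window, 52.4% of the Htr1b window and 70.8% of the Htr6 window, beside a median of 52.4% over all windows. A match is a description of the letters and not evidence of a bound factor.

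Htr1b was the most abundant of the 10 receptor RNAs per length. Over the 48 mice its median was 21.7 FPKM (fragments-per-kilobase-per-million, range 13.6 to 31.0). Htr2c had a median of 8.16 FPKM (range 4.50 to 13.6), Htr1d 7.31 FPKM (range 5.30 to 9.16) and Htr2a 7.28 FPKM (range 4.44 to 10.6). Htr6 followed with 3.37 FPKM and Htr4 with 1.54 FPKM. Htr1f, Htr7, Htr3a and Htr1a lay at or below 1 FPKM, with medians of 0.991, 0.935, 0.758 and 0.517 FPKM. In WT mice alone, the lowest Htr1b value (20.2 FPKM) lay above the highest Htr1d value (7.97 FPKM). Htr1d, Htr2a and Htr2c overlapped in WT mice, as did Htr7, Htr3a, Htr1f and Htr1a, so no order within either set exceeded the spread between mice. Htr2c, Htr6, Htr4 and Htr7 followed each other in WT mice with no overlap between neighbours. The depth behind these values was 3063 to 6606 counts per library for Htr1b and 42 to 113 counts for Htr3a, the least counted member.

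**Figure D1:**
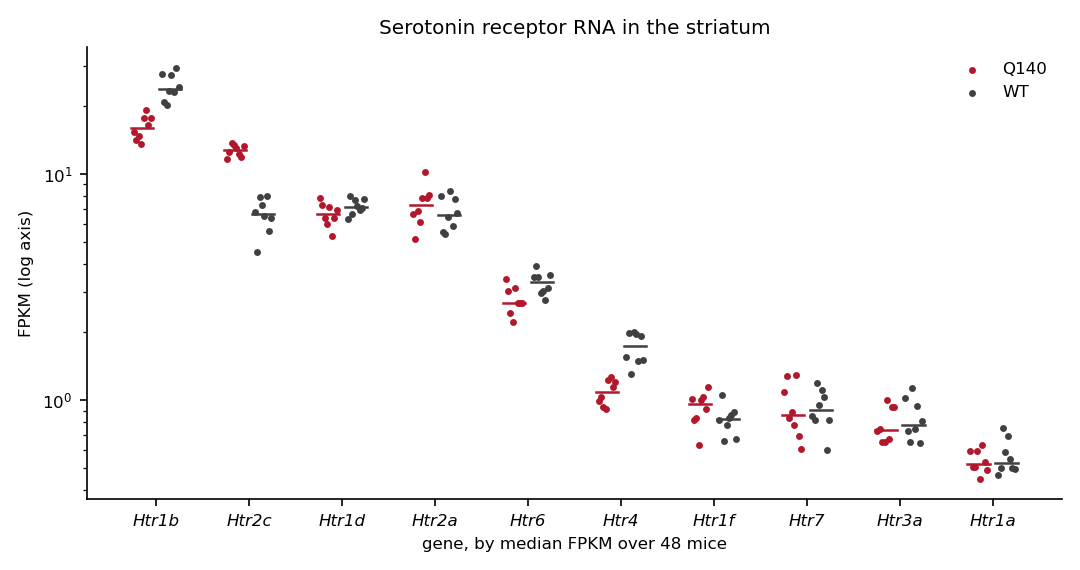
FPKM of the 10 serotonin receptor genes (log axis) in each of 8 Q140 and 8 WT mice, with a bar at the median of each group. Htr1b lies highest, with a median of 21.7 FPKM over all 48 mice, and Htr1a lowest, with 0.517 FPKM.

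Htr2c RNA rose and Htr1b, Htr4 and Htr6 RNA fell in Q140 mice relative to WT mice. Thus 4 of the 10 members passed the threshold, 1 higher and 3 lower, beside 33.0% of all 19714 genes tested (17.0% higher and 16.0% lower). With a share so near that of all genes, the number of members called is not in itself a result about the family. Scaling by total counts gave 5773 higher and 2064 lower calls over all genes, beside 3358 higher and 3148 lower here, and left the calls of these 4 members as they were. In whole tissue, fewer cells of a type and less RNA per cell cannot be told apart. All fold changes here are on the log2 scale, tested with edgeR's quasi-likelihood F-test with Benjamini-Hochberg adjustment over all genes tested.

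Htr1b encodes an inhibitory autoreceptor and heteroreceptor of axon terminals. It had 62.2 to 87.0 CPM with a median of 73.9 CPM in Q140 mice, against 98.3 to 144 CPM with a median of 114 CPM in WT mice. Every Q140 mouse lay below every WT mouse. The difference was -0.68 (SE 0.0905, adjusted p = 7.36e-08), or 37.5% of the WT level lost. The gene D430036J16Rik overlaps Htr1b on the opposite strand and fell with it (by 0.50, SE 0.0658, adjusted p = 1.35e-08), to 13.6 to 17.9 CPM in Q140 mice, against 18.1 to 25.3 CPM in WT mice. The kit was stranded, per the labels' protocols, but the strand setting of the counting is not given in the sources used here, so reads of the pair cannot be told apart with certainty.

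The other Htr1 genes did not pass. Htr1d, a close relative of Htr1b that also acts as an inhibitory autoreceptor, had 16.3 to 24.9 CPM (median 20.9) in Q140 mice, against 20.7 to 25.9 CPM (median 23.4) in WT mice. Of the Q140 mice, 4 lay below the lowest WT mouse, and the difference of -0.18 (SE 0.0777) had an adjusted p of 0.072. Htr1a, the somatodendritic autoreceptor of raphe neurons, differed by -0.15 (95% interval -0.44 to 0.15) and Htr1f by 0.10 (95% interval -0.11 to 0.32).

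Htr2c encodes a Gq-coupled receptor whose pre-mRNA is edited, and it hosts 8 small RNA genes on its own strand. It had 107 to 124 CPM with a median of 116 CPM in Q140 mice, against 42.6 to 76.6 CPM with a median of 63.7 CPM in WT mice. The lowest Q140 mouse stood well above the highest WT mouse. The difference was 0.87 (SE 0.0819, adjusted p = 1.21e-11), a 1.82-fold rise. Htr2a, the other Gq-coupled member, had 15.2 to 29.0 CPM (median 21.0) in Q140 mice, against 16.6 to 25.5 CPM (median 19.9) in WT mice. Its groups overlapped almost wholly, with a difference of 0.04 (95% interval -0.22 to 0.29, adjusted p = 0.86).

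Htr4 and Htr6, both Gs-coupled, fell. Htr4 had 4.15 to 5.66 CPM with a median of 4.97 CPM in Q140 mice, against 6.26 to 9.57 CPM with a median of 8.36 CPM in WT mice. No Q140 mouse reached the WT range, and the fall was 0.72 (SE 0.119, adjusted p = 2.84e-06), or 39.4% of the WT level. Htr6 had 5.02 to 8.01 CPM with a median of 6.15 CPM in Q140 mice, against 6.65 to 9.26 CPM with a median of 8.01 CPM in WT mice. Its ranges overlapped, with 5 of 8 Q140 mice below the lowest WT mouse, and the fall was 0.31 (SE 0.096, adjusted p = 0.00904). In the mice of each sex alone Htr6 did not pass (females -0.38, adjusted p = 0.0907; males -0.24, adjusted p = 0.143). Htr7, the third Gs-coupled member, differed by -0.05 (95% interval -0.38 to 0.28), and the channel subunit Htr3a, which Gm32335 overlaps on the opposite strand, by -0.16 (95% interval -0.44 to 0.12).

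**Figure D2:**
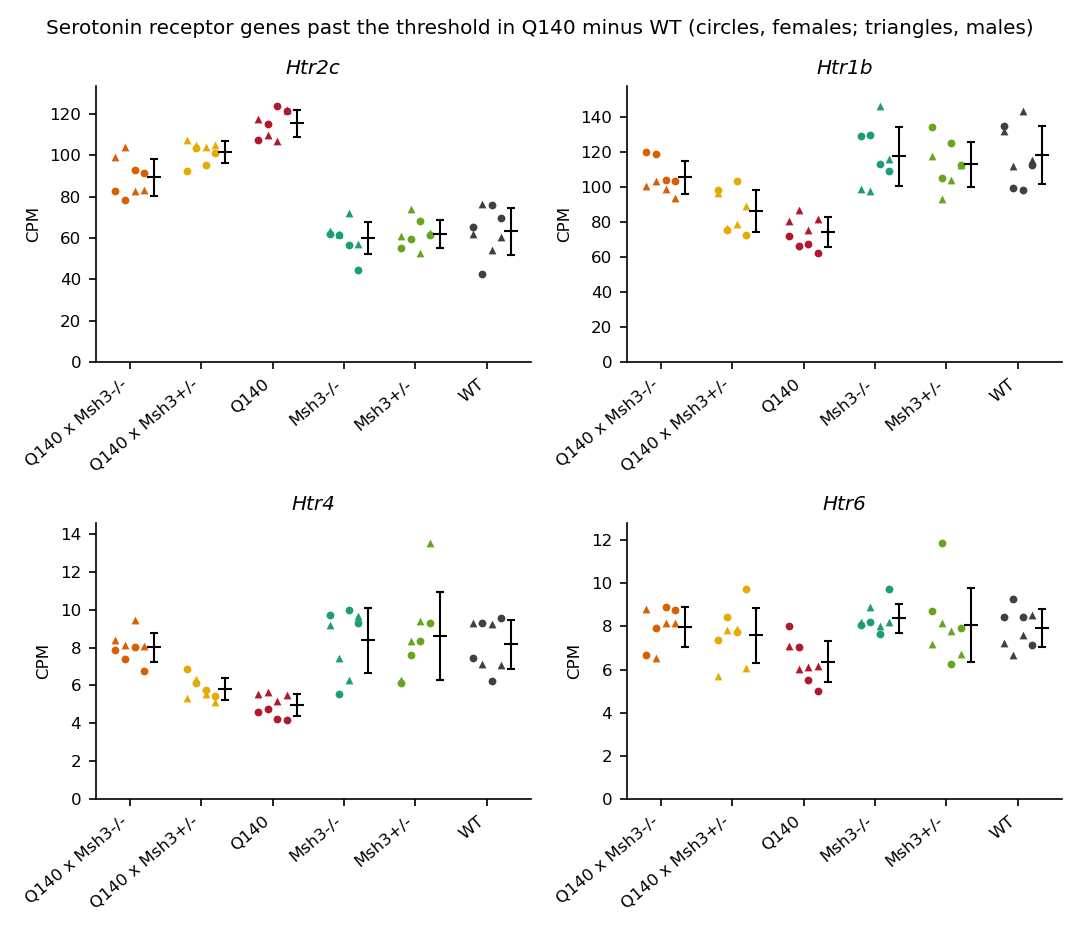
CPM of Htr2c, Htr1b, Htr4 and Htr6 in each of 48 mice by genotype, with each group's mean and SD as a black bar to its right. The 8 Q140 mice lie at 107 to 124 CPM of Htr2c and at 4.15 to 5.66 CPM of Htr4, apart from the WT mice in both, while the Htr6 groups overlap.

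The same Q140 allele was also compared on the Msh3+/- and Msh3-/- backgrounds, each with its own 8 control mice. On the Msh3+/- background 4 members passed (Q140 x Msh3+/- minus Msh3+/-; 2 higher and 2 lower), beside 21.5% of all genes. Htr2c had 92.5 to 108 CPM (median 104) in Q140 x Msh3+/- mice, against 52.6 to 73.9 CPM (median 61.1) in Msh3+/- mice, a rise of 0.72 (SE 0.082, adjusted p = 3.57e-09) with no overlap. Htr1b had 72.5 to 104 CPM (median 84.1) in Q140 x Msh3+/- mice, against 93.4 to 134 CPM (median 113) in Msh3+/- mice. It fell by 0.39 (SE 0.0901, adjusted p = 0.00109), with 5 of 8 Q140 x Msh3+/- mice below the lowest Msh3+/- mouse. Htr4 had 5.09 to 6.87 CPM (median 5.63) in Q140 x Msh3+/- mice, against 6.15 to 13.5 CPM (median 8.34) in Msh3+/- mice, and fell by 0.56 (SE 0.118, adjusted p = 0.000257).

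Htr2a was the fourth member that passed on this background. It had 16.3 to 31.3 CPM (median 23.3) in Q140 x Msh3+/- mice, against 13.3 to 25.0 CPM (median 16.1) in Msh3+/- mice. The ranges overlapped, with 3 of 8 Q140 x Msh3+/- mice above the highest Msh3+/- mouse, and the rise was 0.43 (SE 0.128, adjusted p = 0.0116). Htr2a did not pass in females alone (0.45, adjusted p = 0.12) or in males alone (0.41, adjusted p = 0.219). Htr6 did not pass there (-0.09, 95% interval -0.28 to 0.10).

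On the Msh3-/- background 2 members passed, both higher (Q140 x Msh3-/- minus Msh3-/-), beside 7.86% of all genes. Htr2c had 78.4 to 104 CPM (median 87.4) in Q140 x Msh3-/- mice, against 44.6 to 71.9 CPM (median 61.7) in Msh3-/- mice. Again no mice overlapped, and the rise was 0.58 (SE 0.0822, adjusted p = 4.09e-06). Htr2a had 24.3 to 29.7 CPM (median 25.1) in Q140 x Msh3-/- mice, against 13.9 to 28.8 CPM (median 17.9) in Msh3-/- mice. All Q140 x Msh3-/- mice exceeded the Msh3-/- mean, but 1 Msh3-/- mouse reached into their range, and the rise was 0.53 (SE 0.128, adjusted p = 0.00612). Here too Htr2a did not pass in females alone (0.62, adjusted p = 0.0908) or in males alone (0.43, adjusted p = 0.384).

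Htr1b and Htr4 did not pass on the Msh3-/- background. Htr1b had 93.9 to 120.3 CPM (median 104) in Q140 x Msh3-/- mice, against 97.9 to 146 CPM (median 115) in Msh3-/- mice, a difference of -0.16 (95% interval -0.34 to 0.03, adjusted p = 0.329). Htr4 had 6.75 to 9.46 CPM (median 8.04) in Q140 x Msh3-/- mice, against 5.53 to 9.97 CPM (median 9.24) in Msh3-/- mice, a difference of -0.07 (95% interval -0.31 to 0.16, adjusted p = 0.78). Both pairs of groups overlapped, with 6 of 8 Q140 x Msh3-/- mice below the Msh3-/- mean for Htr1b and 7 of 8 for Htr4. Htr6 differed by -0.07 (95% interval -0.26 to 0.13).

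**Figure D3:**
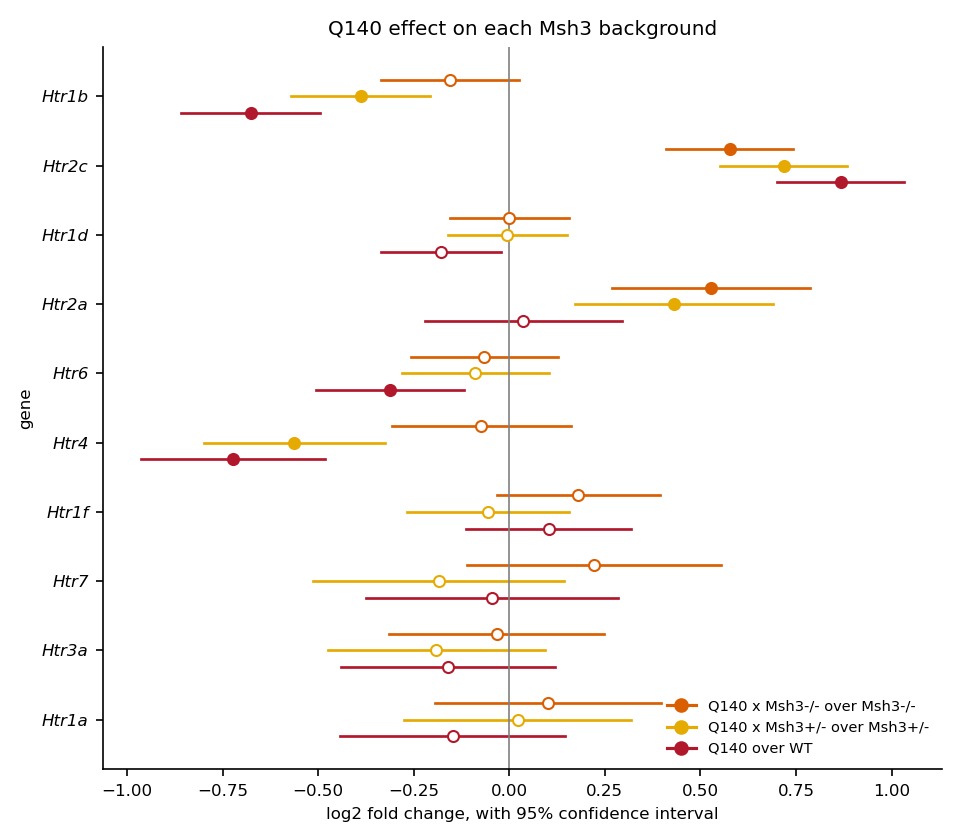
Log2 fold change of each member (points, filled where adjusted p was below 0.05) with its 95% confidence interval for the Q140 allele on the Msh3-/-, Msh3+/- and WT backgrounds. Htr2c lies above 0 on all 3 (0.58, 0.72 and 0.87), whereas Htr4 is at -0.07, -0.56 and -0.72.

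Whether the Q140 effect itself differed between backgrounds was tested as an interaction, the Q140 effect on a Msh3 background minus that on the WT background. For Msh3-/-, 2 members passed, beside 6.15% of all genes. The Q140 effect on Htr1b was higher by 0.52 on the Msh3-/- background (SE 0.127, adjusted p = 0.00706), and that on Htr4 by 0.65 (SE 0.166, adjusted p = 0.00969). Htr2c, whose rise was smaller on the Msh3-/- background, had an interaction of -0.29 (SE 0.116, adjusted p = 0.138) and Htr2a one of 0.49 (SE 0.181, adjusted p = 0.104), so neither was shown to differ. With the mice of 1 sex only, Htr4 missed the threshold in females (0.67, adjusted p = 0.0981), and both genes missed it in males (Htr1b 0.42, adjusted p = 0.361; Htr4 0.64, adjusted p = 0.315). For Msh3+/-, 0 members passed in edgeR, DESeq2 or limma, beside 0.0152% of all genes, with 2 members at an unadjusted p below 0.05.

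Within Q140 mice, loss of both Msh3 alleles by label went with higher Htr4, Htr1b, Htr6 and Htr1d and lower Htr2c. Of the members, 5 of 10 passed in Q140 x Msh3-/- minus Q140, 4 higher and 1 lower, beside 16.3% of all genes (8.75% higher and 7.57% lower; 1725 higher and 1492 lower, and 1283 higher and 2869 lower with scaling by total counts). This comparison holds the same 8 Q140 libraries as Q140 minus WT, so no relation between the 2 is read, and each gives its own values. Htr4 rose by 0.69 (SE 0.119, adjusted p = 2.17e-05) and Htr1b by 0.51 (SE 0.0905, adjusted p = 5.22e-05). In both, every Q140 x Msh3-/- mouse lay above every Q140 mouse: 6.75 to 9.46 CPM against 4.15 to 5.66 CPM for Htr4, and 93.9 to 120.3 CPM against 62.2 to 87.0 CPM for Htr1b.

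Htr2c fell by 0.37 (SE 0.081, adjusted p = 0.000871), to 78.4 to 104 CPM in Q140 x Msh3-/- mice, against 107 to 124 CPM in Q140 mice, again without overlap. Htr6 rose by 0.33 (SE 0.0959, adjusted p = 0.0125), with 6.52 to 8.92 CPM (median 8.16) in Q140 x Msh3-/- mice and 5 of them above the highest Q140 mouse. Htr1d rose by 0.23 (SE 0.0776, adjusted p = 0.0348), with 22.0 to 27.9 CPM (median 24.5) in Q140 x Msh3-/- mice. The Htr6 and Htr1d calls were the least secure of the 5. Without the 4 libraries whose sample names carry another prefix (2 Q140 and 2 WT) the adjusted p was 0.0659 for Htr6 and 0.0907 for Htr1d. With scaling by total counts it was 0.0709 for Htr1d. In females alone it was 0.212 for Htr6 and 0.412 for Htr1d, and in males alone 0.122 and 0.174. In males alone the adjusted p was 0.198 for Htr1b (0.29) and 0.133 for Htr2c (-0.30).

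With 1 Msh3 allele lost by label, 0 of 10 members passed in edgeR, DESeq2 or limma (Q140 x Msh3+/- minus Q140), beside 1.32% of all genes, and 4 members had an unadjusted p below 0.05. Those were Htr6 (0.25, 95% interval 0.06 to 0.44), Htr1b (0.22, 0.04 to 0.40), Htr2c (-0.18, -0.35 to -0.02) and Htr1d (0.17, 0.01 to 0.33). The smallest adjusted p among the members was 0.195 in the main fit. With only the 2 genotypes fitted in edgeR, 1 member passed, and it was lower. For Htr2c, 7 of 8 Q140 x Msh3+/- mice lay below the lowest Q140 mouse. For Htr4, 8 of 8 lay above the Q140 mean. The median over the members was 0.15, beside 0.01 over all genes tested.

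Without Q140, no effect of the Msh3 genotypes on a member was detected. In Msh3-/- minus WT, 0 of 10 members passed in edgeR, DESeq2 or limma, beside 0.0457% of all genes, and 0 had an unadjusted p below 0.05. In Msh3+/- minus WT, 0 passed in edgeR, DESeq2 or limma, beside 0.0101% of all genes, and Htr1f alone had an unadjusted p below 0.05 (0.29, 95% interval 0.07 to 0.50, adjusted p = 0.981). For Htr1b the 95% intervals were -0.19 to 0.17 in Msh3-/- and -0.25 to 0.11 in Msh3+/- mice, and for Htr2c -0.25 to 0.09 and -0.20 to 0.13, which bound what could have gone unseen. Htr1a lies on chromosome 13 as Msh3 does, 13.09 Mb away in GRCm38, and differed by -0.11 in Msh3-/- mice (95% interval -0.41 to 0.18).

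**Figure D4:**
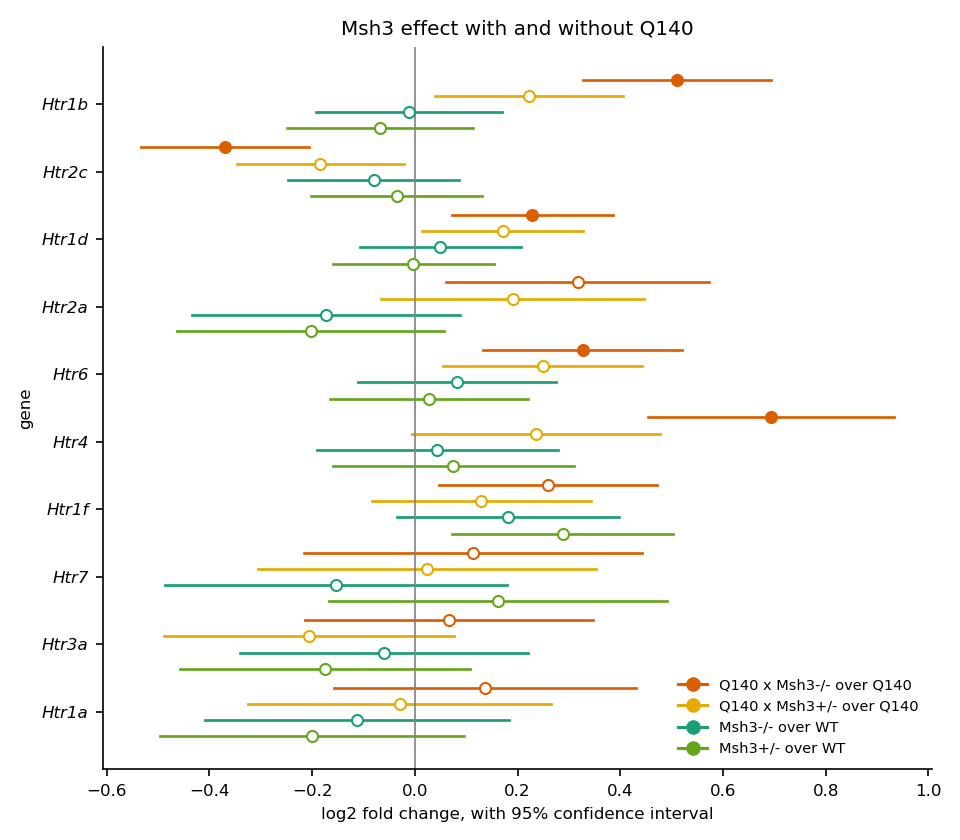
Log2 fold change of each member (points, filled where adjusted p was below 0.05) with its 95% confidence interval for the labelled Msh3 genotypes: both crosses over Q140, and Msh3-/- and Msh3+/- over WT. The filled points are Htr4 (0.69), Htr1b (0.51), Htr6 (0.33), Htr1d (0.23) and Htr2c (-0.37), all in Q140 x Msh3-/- over Q140.

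Mice with Q140 and no intact Msh3 allele by label were also set against WT mice. Here 2 members passed, both higher, beside 6.28% of all genes. Htr2c had 78.4 to 104 CPM in Q140 x Msh3-/- mice, against 42.6 to 76.6 CPM in WT mice, and was higher by 0.50 (SE 0.0819, adjusted p = 4.41e-05) without overlap. Htr1f, an inhibitory receptor of low level in this tissue, had 2.43 to 3.35 CPM (median 2.55) in Q140 x Msh3-/- mice, against 1.71 to 2.68 CPM (median 2.12) in WT mice, and was higher by 0.36 (SE 0.106, adjusted p = 0.0258). The Htr1f call was lost without the 4 libraries that stood apart (0.31, adjusted p = 0.0781) and with the name prefix as a term (0.31, adjusted p = 0.119). It was also lost in the 44 libraries of 1 name prefix (0.30, adjusted p = 0.089), in females (0.28, adjusted p = 0.525) and in males (0.44, adjusted p = 0.141). Htr2a had 24.3 to 29.7 CPM in Q140 x Msh3-/- mice, against 16.6 to 25.5 CPM in WT mice, with all 8 Q140 x Msh3-/- mice above the WT mean. It did not pass (0.35, SE 0.127, adjusted p = 0.09), but did with scaling by total counts (0.39, adjusted p = 0.0428), with only the 2 genotypes fitted (adjusted p = 0.0197) and in limma (adjusted p = 0.0306 and 0.0312 by pseudocount). Htr4 differed by -0.03 (95% interval -0.26 to 0.20), Htr6 by 0.02 (-0.18 to 0.21) and Htr1b by -0.17 (-0.35 to 0.01), none of them past the threshold.

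The remaining members varied less between genotypes than between mice. Htr1a group medians ran from 2.12 CPM in Q140 x Msh3+/- to 2.56 CPM in Msh3-/- mice. For Htr7 they ran from 2.84 CPM in Q140 to 3.67 CPM in Msh3+/- mice, with single mice at 1.34 and 4.33 CPM. Htr3a medians lay between 1.41 CPM (the Q140 x Msh3+/- mice) and 1.68 CPM (the Msh3-/- mice). None of the 3 passed in any genotype comparison, interactions included.

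**Figure D5:**
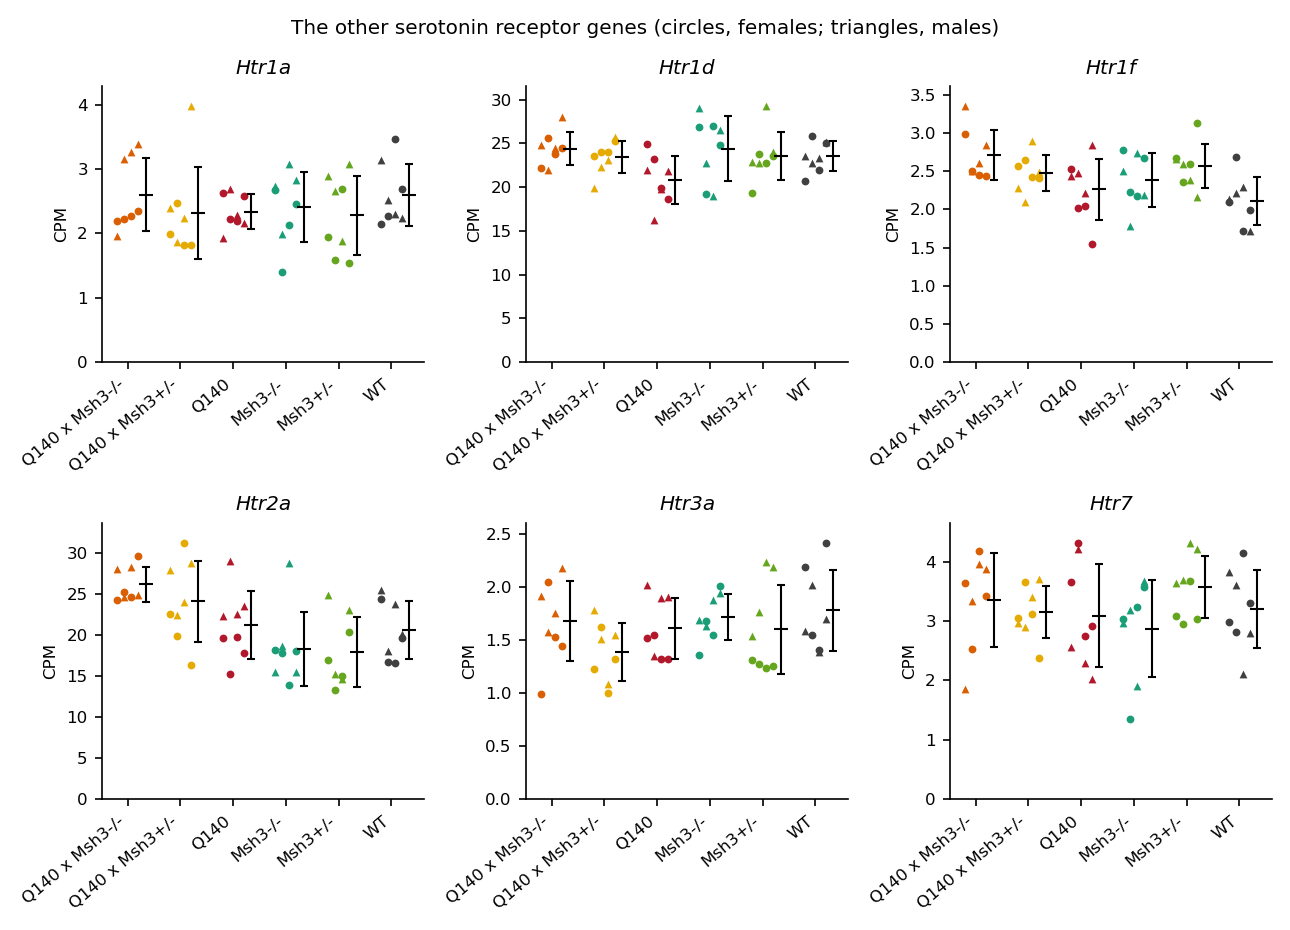
CPM of Htr1a, Htr1d, Htr1f, Htr2a, Htr3a and Htr7 in each of 48 mice by genotype, with each group's mean and SD as a black bar to its right. The Q140 x Msh3-/- mice lie at 24.3 to 29.7 CPM of Htr2a, and the genotypes overlap throughout in Htr1a, Htr3a and Htr7.

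No member differed detectably between the sexes in the edgeR fit. In female minus male over the 6 genotypes, 0 of 10 passed in edgeR, 0 in DESeq2 and 2 or 1 in limma (by pseudocount), beside 4.26% of all genes, and 4 had an unadjusted p below 0.05. Htr3a (-0.23, 95% interval -0.39 to -0.07), Htr1a (-0.22, -0.39 to -0.05) and Htr2a (-0.22, -0.36 to -0.07) were nominally lower in females, and Htr6 nominally higher (0.12, 0.01 to 0.23). Htr2a had 13.3 to 31.3 CPM (median 18.9) in 24 females, against 14.6 to 29.0 CPM (median 23.7) in 24 males. The sex difference of the Q140 effect passed in 0 members in edgeR, DESeq2 or limma, beside 0% of all genes, with 0 members and 658 of all genes at an unadjusted p below 0.05.

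Mice of 1 genotype and sex also differed among themselves, and some members did so together. After the means of genotype and sex were taken out of log2 CPM, Htr1b and Htr2a had a Pearson r of 0.69 over the 48 libraries, Htr1a and Htr7 one of 0.58, and Htr1d and Htr4 one of 0.47. Htr1d had a negative r with Htr2a (-0.44) and with Htr1b (-0.41). These are descriptions, and the points share library depth and dissection. The genes most like a member by the same measure, among 13832 tested genes whose log2 CPM averaged 1 or more, were Jak2 (0.85), Mesdc1 (0.83) and Pdp1 (0.79) for Htr1b. For Htr2c they were Zcchc12 (0.75), Gnai1 (0.71), which encodes an inhibitory G protein subunit, and Zcchc18 (0.71). Man1c1 came first for both Htr4 (0.69) and Htr1d (0.67), Syt12 (0.80) for Htr6 and Camk1g (0.79) for Htr2a. Kcnc2 (0.81) and Kcnc1 (0.77), potassium channel genes of fast-spiking neurons, were among the 3 most like Htr7.

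Other genes of the serotonin system were read against the same share of all genes called in Q140 minus WT (33.0%; 17.0% higher and 16.0% lower), with no test of the difference. Of the 4 further receptor genes, Htr5a and Htr5b passed the filter and neither was called in any comparison. Htr5a, an inhibitory receptor, had 10.3 to 13.3 CPM in Q140 mice, against 10.4 to 13.6 CPM in WT mice. Of 7 tested genes of serotonin synthesis, transport and breakdown, 1 rose and 0 fell in Q140 minus WT: Maoa, a monoamine oxidase, by 0.18 (SE 0.0439, adjusted p = 0.000896). Slc6a4, the serotonin transporter of raphe neurons, reached at most 0.145 CPM in Q140 mice and 0.074 CPM in WT mice.

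Genes that act with or downstream of the receptors changed in both directions. Of 10 receptor partner and RNA editing genes, 2 rose and 4 fell in Q140 minus WT, beside 17.0% higher and 16.0% lower over all genes, with a list median of -0.07 beside 0.00 over all genes. S100a10, an annexin-binding protein known to bind the Htr1b and Htr4 receptors, fell by 1.11 (SE 0.169, adjusted p = 1.15e-06). Dlg4, which encodes the postsynaptic scaffold PSD-95, fell by 0.31 (SE 0.0313), and Mpdz, a scaffold protein that binds the Htr2c receptor, rose by 0.30 (SE 0.0493). The editing enzyme genes Adar and Adarb1 did not pass. In Q140 x Msh3-/- minus Q140, S100a10 rose by 0.53 (SE 0.17, adjusted p = 0.0248) and Dlg4 by 0.22 (SE 0.0313), and Mpdz fell by 0.16 (SE 0.0491).

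Of 16 G protein and effector genes, 4 rose and 5 fell in Q140 minus WT (list median -0.02), beside 17.0% higher and 16.0% lower over all genes. Adcy5 encodes the adenylyl cyclase that prevails in striatum, and it fell by 0.83 (SE 0.0392, adjusted p = 2.58e-23), as did Ppp1r1b, which encodes DARPP-32, by 0.77 (SE 0.0405), and Plcb1, a phospholipase C of the Gq pathway, by 0.42 (SE 0.0441). Gnai1 rose by 0.23 (SE 0.0533). In Q140 x Msh3-/- minus Q140, 5 rose and 1 fell, beside 8.75% higher and 7.57% lower over all genes, led by Adcy5 (0.52, SE 0.0391).

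Markers of the cells that carry these receptors moved in the same comparisons. Of 8 markers of spiny projection neurons of both pathways, 8 fell in Q140 minus WT (list median -0.56), beside 16.0% of all genes, and of 6 indirect-pathway markers 5 fell (list median -0.74). Of 8 direct-pathway markers, 3 rose and 3 fell (list median -0.02), beside 17.0% higher and 16.0% lower over all genes. The summed level of the markers of both pathways was 5466 to 6090 CPM in Q140 mice, against 8810 to 9688 CPM in WT mice. In Q140 x Msh3-/- minus Q140, 8 of 8, 6 of 6 and 4 of 8 of the 3 lists rose, beside 8.75% of all genes. The part of these markers in the falls of Htr1b, Htr4 and Htr6 was not tested.

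Choroid plexus, the ventricular epithelium, is known for very high Htr2c and lies next to the striatum. Of 10 tested choroid plexus markers, 1 rose in Q140 minus WT and 0 fell, beside 17.0% higher and 16.0% lower over all genes. The marker that rose was Kl, by 0.35 (SE 0.142, adjusted p = 0.0482). The 12 markers summed to 38.9 to 50.7 CPM (median 43.95) in Q140 mice, against 28.3 to 74.0 CPM (median 34.65) in WT mice. WT mice M3 and F2 lay above the Q140 range, and every other WT mouse lay below it. Among the markers, Folr1 was at 0.084 to 0.373 CPM in Q140 mice and 0.127 to 0.382 CPM in WT mice. Otx2 reached no more than 0.492 CPM in Q140 mice and 0.573 CPM in WT mice. Ttr, an abundant product of this epithelium, had 10.3 to 18.8 CPM in Q140 mice, against 4.09 to 39.0 CPM in WT mice. Cldn2 and Kcnj13 did not pass the filter. In Q140 x Msh3-/- minus Msh3-/-, where Htr2c also rose, 0 of 10 choroid plexus markers were called, beside 7.86% of all genes. The marker sums were 28.1 to 50.5 CPM (median 35.3) in Q140 x Msh3-/- mice, against 23.4 to 55.8 CPM (median 27.3) in Msh3-/- mice. The part of choroid plexus RNA in the rise of Htr2c was not tested.

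Htr2a is abundant in cortical projection neurons. Of 10 cortical projection neuron markers, 2 rose in Q140 x Msh3-/- minus Msh3-/- and 2 in Q140 x Msh3+/- minus Msh3+/- (Cux2 and Lamp5 in both), and 0 fell in either, beside 7.86% and 21.5% of all genes called in either direction. The list medians of the 2 comparisons, 0.43 and -0.12, differed in sign. In Q140 minus WT, where Htr2a did not pass, 4 rose and 1 fell (list median -0.02), beside 17.0% higher and 16.0% lower over all genes. The markers summed to 166 to 262 CPM (median 189) in Q140 x Msh3-/- mice, against 150 to 188 CPM (median 159) in Msh3-/- mice. On the Msh3+/- background the sum was 169 to 195 CPM (median 188) with Q140, against 142 to 250 CPM (median 158) in Msh3+/- mice. Most of the sum was Lamp5 (106 CPM on average in WT mice). Without the 2 libraries in which the sum exceeded 1.3 times the median, the rise of Htr2a was 0.52 (adjusted p = 0.0105) on the Msh3-/- background. It was 0.47 (adjusted p = 0.0085) on the Msh3+/- background. Because Lamp5 made up most of the sum and was itself called, this setting is no test of cortical RNA in the rise. Of other cell markers in Q140 minus WT, 5 of 12 interneuron, 4 of 7 astrocyte and 4 of 7 microglia markers fell and none rose. Of 4 tested thalamic and hypothalamic markers, 1 rose and 1 fell. The shares over all genes were again 17.0% higher and 16.0% lower. The part of all these cell markers in the results was not tested.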

How the data were processed

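Per the labels' protocols, striatal RNA went into Illumina TruSeq stranded libraries, 1 per mouse. Tools named per the submitters' processing notes were HTSeq 0.12.3, STAR 2.7.5c and SAMtools 1.10, with GRCm38 and mm10 as builds. For the counting, the annotation release and strand setting were not stated in the sources used here. The authors deposited whole-number counts per gene and an FPKM table. Dividing each count by its library total and multiplying by 1 fixed number per gene gave the deposited FPKM back (largest relative deviation 3e-07 over 16958 genes), so FPKM added no measurement. Reads that could belong to several genes are treated as the authors' counting left them.

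Groups came from the genotype labels of the samples, and sexes and replicate numbers from the sample titles. All 96 sample columns of both tables matched by name. Genes kept by edgeR's filterByExpr by genotype (minimum count 10) numbered 19714, and 29081 were not tested. The main test was edgeR 4.0.16 (R 4.3.3): scaling by trimmed mean of M values, the quasi-likelihood F-test, 6 genotypes and sex as terms, 48 libraries, 41 residual degrees of freedom and a threshold of 0.05. CPM are these scaled counts-per-million, and fold changes are log2 values computed from the deposited counts. Intervals are 95% from the fit. Alternatives used DESeq2 1.42.0, limma 3.58.1 on log2(FPKM + 0.1) and log2(FPKM + 1), other scalings, filters, covariates and subsets of mice. Scripts were tested on simulated data. The sex difference of the Q140 effect came from a fit with a genotype by sex term.

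The named genes were the 10 members in every comparison, Msh3 and Htt, up to 4 genes with the smallest adjusted p from each gene list, and the 3 genes most like each member. Genes named beside these for their role in the tissue were chosen after their values were seen. The members and lists were chosen with earlier results of these data known. Gene positions came from GENCODE M21 and promoters from RefSeq (GRCm38.p6). Mice of the same replicate number did not deviate together (19 of 120 same-number pairs had a correlation over 0.1), so the numbers were not taken to pair mice. No 2 libraries were identical or agreed within counting noise.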

Additional observations from a re-analysis of the deposited data

Results flagged for a closer look

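In 60 groups of 8 mice (10 members in 6 genotypes), 4 groups held a mouse far from the others, with a gap to the next mouse past Dixon's critical value for 8 samples. Chance flags about 1 group in 20. Htr1a was at 3.97 CPM in Q140 x Msh3+/- mouse M4, above the next mouse at 2.47 CPM. Htr2a was at 28.8 CPM in Msh3-/- mouse M3, against 18.6 CPM in the next. Htr4 was at 13.5 CPM in Msh3+/- mouse M4, against 9.39 CPM in the next, and Htr6 at 11.9 CPM in Msh3+/- mouse F2, against 8.71 CPM. None of these 4 mice belongs to the 4 libraries named in the report as standing apart, but Msh3+/- M4 is 1 of the 2 libraries with high cortical markers (1.48 times the median sum).

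The Q140 effect differed between the Msh3-/- and the WT background in 2 members by the interaction test: by 0.52 for Htr1b and by 0.65 for Htr4. Both Q140 effects were negative on the WT background (-0.68 and -0.72) and had intervals that include 0 on the Msh3-/- background (-0.16 and -0.07).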

How the results depend on the processing

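Results were recomputed under 16 other settings, though the sex comparisons and the interactions not under all of them. Of the settings, 2 were chosen after seeing the data (leaving out the 4 libraries that stood apart, or the 2 with high cortical markers), and 0 of 1800 member values reversed a call. The calls of Htr1b, Htr2c and Htr4 in Q140 minus WT held in 16 of 16, with Htr4 at -0.37 on log2(FPKM + 1), a scale that understates changes of low genes. Of the counts of members called, 160 of 180 stayed within 1.5 times. The others follow. Q140 x Msh3-/- minus WT (2 members) gave 1 with no filter on low counts, with the name prefix as a term, in the 44 libraries of 1 prefix, without the 4 libraries that stood apart and in males, and 0 in females. Q140 x Msh3-/- minus Q140 (5) gave 3 with the prefix as a term, in the 44 libraries and in females, and 1 in males. Q140 x Msh3+/- minus Q140 (0) gave 1 with only the 2 genotypes fitted. Female minus male (0) gave 1 in the 44 libraries, 2 with limma on log2(FPKM + 0.1) and 1 on log2(FPKM + 1). Females and males alone gave 2 and 2 in Q140 x Msh3+/- minus Msh3+/- (4), 1 and 1 in Q140 x Msh3-/- minus Msh3-/- (2), and 1 and 0 in the Msh3-/- interaction (2). Fits in 1 sex hold fewer mice; the cause of the other shifts was not tested. The replicate block changed no member's call, with 4 members and 6526 genes in Q140 minus WT, and 6 of 48 libraries correlated best with their own number. Over all genes, Q140 x Msh3+/- minus Q140 gave 260, 154 without the 4 libraries that stood apart, 444 with DESeq2, 422 with the plate column as a term and 1 in males; females and males alone gave 3925 and 3144 of 6506 in Q140 minus WT, and 1648 and 518 of 3217 in Q140 x Msh3-/- minus Q140. In Q140 x Msh3-/- minus Q140 the Htr4 call held in 16 of 16 settings, those of Htr1b and Htr2c in 15, of Htr6 in 12 and of Htr1d in 7. No scaling moved the median of all genes by over 0.07. Htr3a, at 42 to 113 counts per library, had the least depth.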
